A study of Mus musculus with 17 samples.

Results

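The difference between the day 0 control and day 1 that was shared by every medium was described in mouse neural retinal progenitor cells (mNRPCs), with 1 RNA-seq library for day 0 and 1 for each of 4 media on day 1. A gene counted as a member when its log2(FPKM + 1) on day 1 differed from the day 0 control by at least 1, in the same direction, in all 4 day 1 libraries. FPKM is a fragment count scaled by the length of the transcript and by the depth of the library. On this scale a difference of 1 is close to 2-fold for a well expressed gene and less than the true ratio for a low one. Of 10785 genes with an average of at least 1 FPKM over the day 0 value and the mean day 1 value, 282 met this rule. They were 255 genes that were higher on day 1 (2.36% of the genes analysed) and 27 that were lower (0.25%).

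The cells were isolated from the neural retina of adult C57BL/6 mice and cultured on Matrigel in basal medium (BM), which is DMEM/F12 with N2 and B27 supplements. The 4 day 1 libraries came from BM, from BM with basic fibroblast growth factor (B), from BM with CHIR99021 (C), an inhibitor of glycogen synthase kinase 3, and from BM with both (BC). The day 0 library is labelled as having no treatment. The sources used here describe day 0 both as culture in BM and as the state before treatment, while the line itself was kept in medium with bFGF and CHIR99021, so the medium of the day 0 cells was not settled. The series holds 17 libraries, and 12 of them, from the same media on days 3, 5 and 7, were used only as further levels. As each condition had 1 library and the 4 day 1 values were all set against the same day 0 library, no test was made, and anything particular to the day 0 library cannot be told apart from a change over the first day.

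Total expected counts were 19428744 in the day 0 library and between 18796690 and 18980140 in the day 1 libraries. The labelled cell type was checked against marker genes. Of 22 retinal progenitor transcription factor genes looked for, 20 were found in the series and 4 were not listed in any of these 5 libraries. On day 0, 11 of the 22 had at least 1 FPKM. Among them were Pax6 with an FPKM of 24.2, Six3 with 25.2, Sox2 with 27.7 and Sox9 with 16.6. Other defining genes of this cell type were at or near 0 in all 5 libraries. Otx2 was not listed in any of them, Rax reached at most 0.03 and Six6 0.01, and Lhx2 lay between 0.29 and 0.89. Of 19 progenitor and glial marker genes, 8 had at least 1 FPKM on day 0, and Fabp7 was not listed in any of the 5 libraries. Vim, an intermediate filament gene on that list, had an FPKM of 2991 on day 0 and between 1640 and 1815 on day 1. The summed FPKM of the list was 3220 on day 0, so that Vim made up most of it. No gene of the progenitor transcription factor list was a member.

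Type I interferons act through a receptor that activates transcription factors, STAT2 and IRF9 among them, and these switch on a large set of antiviral genes. Cells also carry sensors of foreign or misplaced nucleic acid, several of which are themselves encoded by such genes. A second programme, the integrated stress response, is driven by the transcription factor ATF4, which activates genes for amino acid supply and for stress signalling when translation initiation is reduced.

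Promoter sequences are shown for members of these 2 sets because members of a set were higher together. Each sequence shown holds a match to the letters marked, so they do not stand for all members. Ifi44 and Irf7 of the first set and Ddit3 and Ddit4 of the second had no match. They are RefSeq sequences on GRCm38.p6, the build that the labels give as mm10, and hold the 250 bases before the annotated start, read 5′ to 3′ on the strand of the gene. In the first group, capitals mark GAAA, any 2 bases and GAAA, on either strand, the core of the interferon-stimulated response element. Matches can overlap, as the 3 in Isg15 do.

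Ifit3 (chr19:34583279-34583528, plus strand): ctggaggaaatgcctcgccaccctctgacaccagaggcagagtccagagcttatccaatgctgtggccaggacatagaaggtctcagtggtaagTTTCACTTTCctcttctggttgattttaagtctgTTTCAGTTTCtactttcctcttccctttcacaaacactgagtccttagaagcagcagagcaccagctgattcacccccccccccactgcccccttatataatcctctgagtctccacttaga
Isg15 (chr4:156200819-156201068, minus strand): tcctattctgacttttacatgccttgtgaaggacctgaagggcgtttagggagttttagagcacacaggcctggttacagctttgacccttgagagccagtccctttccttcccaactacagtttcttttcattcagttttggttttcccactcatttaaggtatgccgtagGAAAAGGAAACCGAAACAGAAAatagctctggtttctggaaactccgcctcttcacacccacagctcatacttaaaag
Rsad2 (chr12:26456453-26456702, minus strand): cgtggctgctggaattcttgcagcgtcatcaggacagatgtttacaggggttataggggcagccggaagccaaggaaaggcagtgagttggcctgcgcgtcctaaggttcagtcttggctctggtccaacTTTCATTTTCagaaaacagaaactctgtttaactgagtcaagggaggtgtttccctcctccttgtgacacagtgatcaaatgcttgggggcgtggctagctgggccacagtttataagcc
Gbp5 (chr3:142496684-142496933, plus strand): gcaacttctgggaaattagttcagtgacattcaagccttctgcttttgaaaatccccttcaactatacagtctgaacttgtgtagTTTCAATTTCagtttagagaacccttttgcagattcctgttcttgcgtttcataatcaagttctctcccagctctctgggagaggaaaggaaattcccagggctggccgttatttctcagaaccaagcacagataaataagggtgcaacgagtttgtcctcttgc
Gbp7 (chr3:142530086-142530335, plus strand): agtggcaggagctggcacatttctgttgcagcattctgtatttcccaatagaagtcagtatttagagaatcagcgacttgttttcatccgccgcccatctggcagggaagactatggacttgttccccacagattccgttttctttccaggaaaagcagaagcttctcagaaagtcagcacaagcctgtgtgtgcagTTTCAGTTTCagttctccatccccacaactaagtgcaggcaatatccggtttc

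In the second group, capitals mark TGATGNAAN on either strand, the form of the element to which ATF4 binds together with a C/EBP protein.

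Chac1 (chr2:119350992-119351241, plus strand): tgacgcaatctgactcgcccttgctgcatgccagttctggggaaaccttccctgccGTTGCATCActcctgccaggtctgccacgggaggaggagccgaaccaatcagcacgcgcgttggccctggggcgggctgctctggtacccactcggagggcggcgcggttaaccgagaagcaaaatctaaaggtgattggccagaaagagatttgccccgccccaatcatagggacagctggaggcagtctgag
Slc7a11 (chr3:50443614-50443863, minus strand): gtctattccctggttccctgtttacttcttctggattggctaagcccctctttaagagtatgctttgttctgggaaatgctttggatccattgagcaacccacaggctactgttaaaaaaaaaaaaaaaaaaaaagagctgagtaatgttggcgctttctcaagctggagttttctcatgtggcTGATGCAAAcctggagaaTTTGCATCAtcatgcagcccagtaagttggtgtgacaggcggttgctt
Pck2 (chr14:55540016-55540265, plus strand): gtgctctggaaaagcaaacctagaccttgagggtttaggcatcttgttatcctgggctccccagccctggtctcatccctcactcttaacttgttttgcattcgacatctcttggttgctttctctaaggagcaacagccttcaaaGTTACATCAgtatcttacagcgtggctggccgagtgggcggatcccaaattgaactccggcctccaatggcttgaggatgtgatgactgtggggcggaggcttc

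The most upstream interferon-response match began 156 bases before the start of Ifit3, 78 before that of Isg15, 120 before that of Rsad2, 165 before that of Gbp5 and 53 before that of Gbp7. A promoter of 300 bases, from 250 before to 50 after the start, was found for 220 of the 282 members. The interferon-response letters occurred in 50 of 202 such promoters of the higher genes (24.8%), in 0 of 18 of the lower genes and in 3.72% of those of all genes analysed. Among the higher genes of the interferon-stimulated list the motif occurred in 7 of 13 promoters (53.8%). Among the higher genes with an interferon or antiviral annotation it occurred in 28 of 41 promoters (68.3%), and among the other higher genes in 22 of 161 (13.7%). In genes with such an annotation that were analysed but were not members it occurred in 3 of 60 promoters (5.0%). TGATGNAAN was held by 5 of 8 promoters of the ATF4 target genes that were higher and by 7 of 21 of all analysed ATF4 target genes. It was held by 9.9% of those of all higher genes and by 2.6% of those of all genes analysed. Both motifs were chosen after the expression values had been seen. Of 11 motifs searched before them, the AP-1 letters TGANTCA, on either strand, were in 13.4% of the promoters of the higher genes and in 5.68% of those of all genes analysed, and in 12 of the 41 promoters with an interferon or antiviral annotation (29.3%). The E2F letters TTCCCGC were in 2.48% and 10.4%, and HIF letters ACGTG in 22.3% and 30.3%. For the other 8 (a further E2F form and CHR, TEAD, TCF/LEF, RBPJ, SREBP, CREB and NF-Y) the shares ranged from 2.48% to 50% in the higher genes and from 3.0% to 44.1% in all genes analysed. Promoters of similar gene copies, such as Ifit3 and Ifit3b with 2 interferon-response matches each, were counted separately and are not independent. A match describes letters in a window and no binding.

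**Figure D1:**
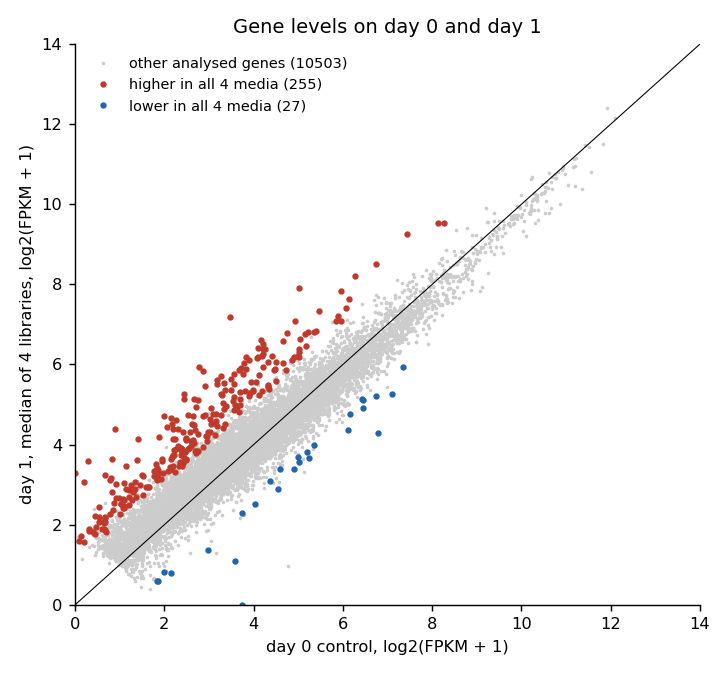
Each point is 1 of the 10785 genes analysed, with log2(FPKM + 1) in the day 0 control on the horizontal axis and the median of the 4 day 1 libraries on the vertical axis. The 255 red points above the line of equality are higher and the 27 blue points below it are lower in all 4 media, and the point on the horizontal axis is Rps27rt, at 0 FPKM on day 1.

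The 4 media differed in how many genes were past a difference of 1, and each held the same 282 genes by construction. BM had 764 higher and 212 lower genes (7.08% and 1.97%), and C had 758 and 283 (7.03% and 2.62%). The media with bFGF had fewer, with 411 higher and 78 lower in B (3.81% and 0.723%) and 387 and 97 in BC (3.59% and 0.899%). In addition to the members, 107 genes were past the difference in the higher direction in exactly 3 of the media, 332 in exactly 2 and 315 in exactly 1. The corresponding counts of lower genes were 42, 135 and 166. The median gene differed from day 0 by 0.07 to 0.11 on the log2(FPKM + 1) scale. After division by TMM factors, which moved that median from 0.09 to -0.05, 205 genes were higher and 62 lower, so that 76.8% in place of 90.4% of the members were in the higher direction. Size factors by the median of ratios gave 199 and 65 (75.4%).

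The day 1 libraries were close to each other at the member genes. For the 255 higher genes, the median FPKM was 5.1 on day 0 and 20.7 in BM, 17.9 in B, 19.0 in C and 17.97 in BC. The median range of log2(FPKM + 1) over the 4 day 1 libraries was 0.37, and the distance from day 0 to the nearest day 1 library was wider than that range in 253 of the 255 genes. A difference of at least 2 in all 4 libraries was found for 37 of them. For the 27 lower genes, the median FPKM was 30.7 on day 0, 9.84 in BM, 11.9 in B, 8.73 in C and 11.96 in BC, and the distance was wider than the range in 25. These values chose the members and are a description. The higher genes nearest to the threshold were Tle6, Sdf2l1 and Ttc23 on the inside and Hoxc6, Gaa and Matn2 on the outside. For the lower genes these were Hbegf, Ccdc86 and Dkc1 inside, and Emp3, Exosc6 and Nol12 outside. Tle6 had an FPKM of 2.94 on day 0 and of 6.89 in BC, its lowest value on day 1, while Hoxc6 had 7.1 on day 0 and 15.2 in B.

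Interferon-stimulated genes had the largest share of members among the 45 first lists, which were chosen with earlier results of these data known. Of 21 analysed genes of the list, 16 were higher in all 4 media and 0 were lower, against 2.36% higher over all genes. The median difference of the 21 genes was 1.88 in BM, 1.69 in B, 1.80 in C and 1.67 in BC, where that of all genes was 0.11, 0.07, 0.11 and 0.07. Of the genes that carry the Gene Ontology term cellular response to interferon-beta in the files, 17 of 30 were higher, and of those with defense response to virus 37 of 102 were higher and 1 was lower. These terms were added after the values had been seen and can share genes with the list.

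Ifi44 (NCBI Gene 99899), an interferon-induced gene, had the largest smallest difference of all higher genes. Its FPKM was 10.1 in the day 0 control, 147 in BM, 159 in B, 127 in C and 144 in BC. The 4 day 1 values were within a narrow range and all were far above day 0. The ratio of its counts to day 0, scaled by library totals, was 14.5 in BM (exact 95% interval 13.4 to 15.9), and 15.7, 12.6 and 14.2 in B, C and BC. The intervals used here cover counting error only.

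Ifit3 (NCBI Gene 15959), whose protein binds with other IFIT proteins to foreign RNA, had an FPKM of 31.4 on day 0, 283 in BM, 250 in B, 218 in C and 233 in BC. Its count ratio in BM was 9.07 (8.54 to 9.63). Ifit3b, a close copy that lies beside it, had an FPKM of 6.52 on day 0 and 36.6 to 54.3 on day 1. Reads that fit more than one gene were split by estimation, so the values of such copies are uncertain one against the other. Ifit1 had 32.0 on day 0 and 78.5 to 103 on day 1, and Ifit2 had 25.8 and 95.7 to 128.

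Rsad2 encodes viperin, an enzyme that blocks the replication of several viruses. Its FPKM was 29.4 on day 0, 136 in BM, 129 in B, 133 in C and 152 in BC, and BC was the highest. Isg15, a ubiquitin-like modifier, had 172 on day 0 and 555 to 636 on day 1. Usp18, which removes ISG15 from proteins and restrains the receptor, had 17.6 on day 0 and 63.6 to 84.0 on day 1. Bst2, which tethers budding virus to the cell surface, was the most abundant gene of the list, with 278 on day 0 and 722 to 815 on day 1.

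The 5 listed genes that were not members were Irf9, Ifi35, Psmb8, Psmb9 and Ifi27. Irf9 had an FPKM of 28.3 on day 0 and 54.2 to 60.2 on day 1, just short of the threshold. Psmb9, a subunit of the immunoproteasome, had 16.1 on day 0 and 32.4 to 55.1 on day 1. Ifi27 went the other way, with 54.4 on day 0 and 29.6 to 39.1 on day 1.

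The genes of the pathway were then ordered by role, from lists drawn up after the values had been seen. None of the 4 analysed ligand and receptor genes was a member. Ifnb1, the gene of interferon beta, was below the level that was analysed, with an FPKM of 0.07 on day 0 and 0.35 in BM, 0.57 in B, 0.21 in C and 0.43 in BC. The receptor gene Ifnar1 had 8.29 on day 0 and 10.4 to 11.9 on day 1, and Ifnar2 had 17.04 and 21.2 to 24.2. Ifna4 and Ifne stayed at or below 0.17.

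Of 9 sensor and adaptor genes, 6 were higher in all 4 media. Ddx58, which encodes the RNA sensor RIG-I, had an FPKM of 17.6 on day 0, 67.6 in BM, 57.5 in B, 62.5 in C and 58.3 in BC. Dhx58, its relative LGP2, had 10.3 on day 0 and 44.3 to 56.2 on day 1. The double-stranded RNA sensors Ifih1 (19.4 on day 0, 40.7 to 45.5 on day 1) and Tlr3 (2.59 and 8.72 to 12.3) were members too, as were Zbp1, a sensor of Z-form nucleic acid, and Unc93b1, a chaperone of Toll-like receptors. The adaptor Mavs had 23.0 on day 0 and 24.7 to 30.5 on day 1, and the genes of the DNA sensor cGAS (Mb21d1) and of STING (Tmem173) were not members either.

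Among 13 signalling genes, 5 were higher in all 4 media, among them Stat2, Irf5, Irf7 and Usp18. Stat2 had an FPKM of 17.4 on day 0, 102 in BM, 91.5 in B, 89.3 in C and 79.3 in BC. Irf7, the interferon regulatory factor that is itself induced by interferon, had 76.1 on day 0 and 260 to 405 on day 1. In contrast, Irf3, which is present in resting cells, had 42.2 on day 0 and 31.3 to 36.0 on day 1, and the kinase gene Jak1 had 29.8 and 32.1 to 37.4.

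Guanylate-binding proteins and immunity-related GTPases, which attack membranes around intracellular microbes, held 15 members among 16 analysed genes, with a median difference of 2.71 in BM, 2.14 in B, 2.49 in C and 2.08 in BC. Gbp5 had an FPKM of 0.77 on day 0, 15.6 in BM, 9.71 in B, 13.0 in C and 10.2 in BC. Gbp3 had 16.8 on day 0 and 92.1 to 119 on day 1, Gbp7 had 8.66 and 49.5 to 58.4, and Iigp1 had 5.87 and 56.4 to 72.1. In Gbp5 and Gbp2 the media without bFGF had the higher day 1 values, and Gbp2 had 90.1 in BM and 73.8 in C beside 46.9 in B and 40.6 in BC. Of these 16 genes Gbp10 was not a member, since its difference in B was below 1.

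All 9 analysed genes of the oligoadenylate synthetase list, whose products respond to double-stranded RNA, were members. Oas2 had an FPKM of 13.2 on day 0 and 69.8 to 78.5 on day 1, and Oas3 had 8.0 and 42.2 to 54.9. Eif2ak2, the RNA-activated kinase PKR of the same list, had 14.8 on day 0 and 37.5 to 40.4 on day 1. Of 7 antiviral PARP genes and partners, 6 were members, and the one that was not was Zc3hav1, with 32.2 on day 0 and 43.7 to 48.0 on day 1.

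Antigen processing and presentation genes, which are further targets of interferon, were less uniform. All 15 were above day 0 in each medium, and 5 passed the threshold in all 4, among them the peptide transporter gene Tap1 (19.0 on day 0, 57.3 to 69.0 on day 1) and Nlrc5, the activator of class I genes (3.82 and 13.2 to 14.4). Of the class I chains, H2-K1 and B2m differed less than these. H2-K1 had an FPKM of 602 on day 0 and 670 to 847 on day 1, and B2m had 1192 and 1444 to 1649. Cxcl10, an interferon-inducible chemokine gene and the only member among 13 analysed NF-kappaB target genes, had 106 on day 0, 425 in BM, 358 in B, 299 in C and 369 in BC.

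Markers of other cell types were set beside these values. Of 11 microglia and leukocyte marker genes, 0 had at least 1 FPKM on day 0 and 1 had in any of the 5 libraries. Their summed FPKM was 1.08 on day 0 and 2.16 to 3.18 on day 1, and the defining genes C1qa, C1qb and C1qc were not listed in any. For 7 endothelial marker genes the sums were 0.9 and 0.77 to 1.39. For 11 fibroblast and pericyte marker genes they were 200.1 and 154 to 379, with both lower and higher values on day 1. The part of such cells in the interferon values was not tested, and in bulk RNA fewer cells of a type and less RNA per cell cannot be told apart.

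Several of these genes lie side by side. Members with a known position outside chromosome 18 formed 7 clusters of at least 4 with gaps of no more than 100 kb, which held 32 of 274 such members, all higher on day 1. The Gbp cluster at chr3:142496934-142638008 held Gbp5, Gbp7, Gbp3 and Gbp2, and 4 of its 4 analysed genes were members. The Ifit cluster at chr19:34550550-34650009 also held 4 of 4. The Oas cluster at chr5:120730333-120907544 held 5 of 5, and the Trim cluster at chr7:104244448-104507853, with Trim30a, Trim12c, Trim5 and Trim34a among its genes, held 6 of 6. The remaining clusters were of the Ifi200 family on chromosome 1, the immunity-related GTPases on chromosome 11 (5 of 6) and the Phf11 genes on chromosome 14. A cluster was defined as a run of members, so a high share of members within its span follows in part from that rule. Many of these neighbours are similar copies, so that their values are not independent.

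**Figure D2:**
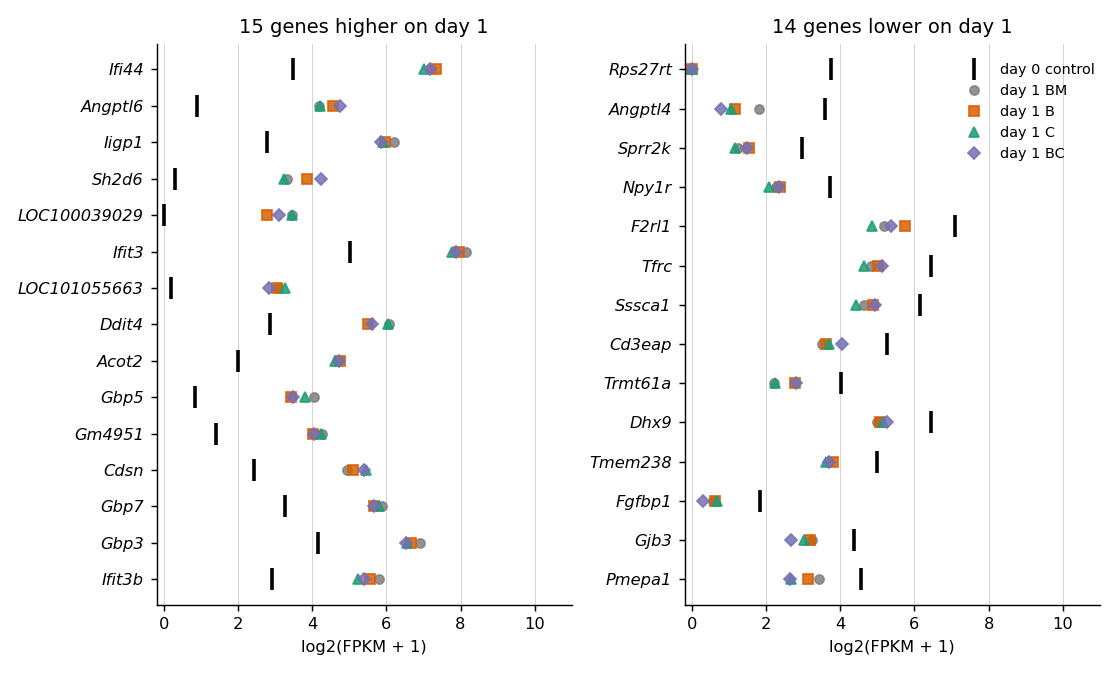
Level of the 15 higher member genes with the largest smallest difference and of 14 of the 15 lower ones, as log2(FPKM + 1) on the horizontal axis, in the day 0 control (bar) and in each day 1 library (symbols, 1 per medium). In each gene the 4 day 1 symbols lie together on the same side of the bar.

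Target genes of ATF4 had the next largest share of members among the 45 first lists. Of 23 analysed genes, 9 were higher in all 4 media and 0 were lower, and 21 were above day 0 in each medium. The median difference was 0.94 in BM, 0.97 in B, 0.78 in C and 0.91 in BC. Ddit4, which restrains the growth kinase mTORC1 and also stands in the hypoxia list, had an FPKM of 6.32 on day 0, 66.6 in BM, 44.0 in B, 65.5 in C and 47.8 in BC, with the media without bFGF higher. Trib3, a pseudokinase induced by stress, had 18.1 on day 0, 77.2 in BM, 88.2 in B, 78.6 in C and 101 in BC. Ddit3, the transcription factor CHOP, had 43.2 on day 0 and 155 to 191 on day 1.

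Aldh1l2, a mitochondrial enzyme of folate metabolism, had an FPKM of 13.9 on day 0, 56.1 in BM, 67.6 in B, 69.4 in C and 73.7 in BC. Chac1, which degrades glutathione, had 16.4 on day 0 and 42.0 to 60.5 on day 1. Slc7a11, the cystine importer, had 2.63 and 7.04 to 10.4, and Pck2, the mitochondrial phosphoenolpyruvate carboxykinase, had 39.7 and 107 to 116. The enzymes of serine synthesis on the list were nearer to day 0. Phgdh had 725 on day 0 and 721 to 803 on day 1, Psat1 had 251 and 261 to 301, and Psph had 57.0 and 95.7 to 124. Atf4 itself had 285 on day 0 and 321 to 405 on day 1. Of 20 aminoacyl-tRNA synthetase genes, 0 were members, and their median difference lay between 0.04 and 0.39.

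A list of genes for kinases that start the integrated stress response and for phosphatase subunits had 6 analysed genes. Of these, 5 were above and 1 was below day 0 in each medium, with medians of 0.38 to 0.57. Eif2ak3, which encodes PERK of the endoplasmic reticulum, had an FPKM of 4.94 on day 0 and 6.31 to 8.36 on day 1, Eif2ak4 (GCN2) had 10.5 and 13.45 to 15.6, and only Eif2ak2, named above, was a member. Ppp1r15a, whose product ends the response, had 21.0 on day 0, 42.6 in BM, 54.9 in B, 31.7 in C and 61.7 in BC. In the endoplasmic reticulum chaperone list 3 of 19 genes were higher, which were Sel1l, Herpud1 and Sdf2l1, and the median difference was 0.52 to 0.67. Hspa5, the main chaperone of that compartment, had 369 on day 0 and 610 to 820 on day 1.

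Other lists held a few members each, to be read against the 2.36% of all genes that were higher. In the circadian clock list 4 of 16 genes were higher, while of 52 genes with the annotation circadian rhythm 5 were higher (9.62%) and 1 was lower, with medians between 0.24 and 0.31. Nfil3 had an FPKM of 7.22 on day 0 and 25.4 to 32.3 on day 1, Dbp had 3.91 and 13.7 to 24.8, and Per1 had 6.34 and 13.9 to 16.8. The core clock genes Clock (10.1 and 9.01 to 10.1) and Arntl (7.37 and 8.36 to 10.3) were close to day 0. The hour at which the libraries were taken is not given in the sources used here.

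In the NRF2 list 3 of 17 genes were higher. These were Hmox1, the haem-degrading enzyme (14.1 on day 0, 34.4 to 44.3 on day 1), Sqstm1, the autophagy receptor p62 (306 and 640 to 786), and Slc7a11. In the lysosome list 2 of 20 were members, Neu1 (5.32 and 14.3 to 18.9) and Npc1 (7.13 and 17.04 to 21.6), while 16 were above day 0 in each medium and 0 below in each. Of 10 FOXO target genes, 2 were higher, Pik3ip1 (1.11 and 3.90 to 7.89) and Arrdc4 (10.99 and 25.8 to 34.4). The median difference of the 10 was 1.29 in BM, 0.92 in B, 1.00 in C and 0.67 in BC. In each medium 9 of them were above day 0.

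Other lists held 1 higher gene each. Atf3 was the only one of 20 immediate early genes, with 3.95 on day 0 and 14.1 to 15.9 on day 1. Id3, a target of bone morphogenetic proteins, had 24.1 on day 0 and 59.3 to 84.5 on day 1, and Pmepa1 of the same list was lower. Acss2, which makes acetyl-CoA from acetate, had 13.9 and 33.8 to 46.8. Eno2 had 1.30 and 4.17 to 6.80, Mmp11 had 3.51 and 9.12 to 14.3, and Slc6a9, a glycine transporter gene in the neuronal list, had 13.0 and 33.3 to 43.4. Igfbp4 had 3 counts on day 0 with 0.07 FPKM and 1.53 to 3.01 FPKM on day 1.

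Among the largest differences there were also genes outside these lists. Angptl6, which encodes a secreted angiopoietin-like protein, had an FPKM of 0.85 on day 0, 17.2 in BM, 22.8 in B, 17.3 in C and 26.1 in BC. The count ratio in BM was 20.6 (13.9 to 31.8), the day 0 count being 25.9. Sh2d6 had 0.23 on day 0 and 8.45 to 17.97 on day 1, from 6.99 counts on day 0. In both genes the media with bFGF were the higher ones. Acot2, a mitochondrial acyl-CoA thioesterase, had 3.0 on day 0, 24.8 in BM, 25.7 in B, 23.4 in C and 25.4 in BC. Cdsn, an adhesion protein of cornified epithelium, had 4.41 on day 0 and 29.6 to 43.1 on day 1. Of 2 genes known only by locus names, LOC100039029 was not listed on day 0 and had 5.89 to 9.90 on day 1, and LOC101055663 had 0.14 and 6.11 to 8.67. A count of 0 allows up to 3 counts in a library of this size, and 7 of the 255 genes had fewer than 10 counts on day 0.

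**Figure D3:**
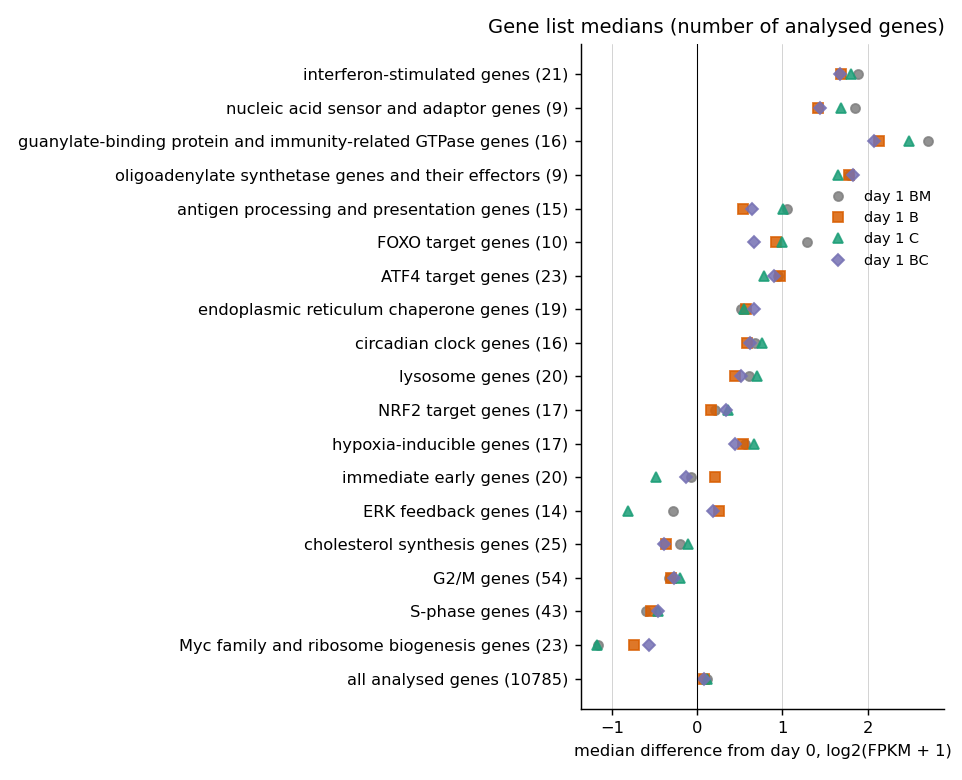
Median difference from the day 0 control, on the log2(FPKM + 1) scale, over the analysed genes of each list, with 1 symbol per day 1 library and the number of genes in brackets. The lists of sensors, guanylate-binding proteins, oligoadenylate synthetases and antigen presentation were drawn up after the values had been seen, and the median of all 10785 genes lies at 0.07 to 0.11.

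The 27 lower genes are given singly, by their largest differences and then by the lists that hold them. Rps27rt had an FPKM of 12.3 on day 0 and was not listed on day 1 nor in any later library. It is a near-identical copy of Rps27, so its reads could have been assigned to either gene and its value is uncertain. Angptl4, a secreted inhibitor of lipoprotein lipase, had 10.95 on day 0, 2.51 in BM, 1.24 in B, 1.06 in C and 0.72 in BC. F2rl1, a receptor activated by proteases and the 1 lower gene with the annotation defense response to virus, had 136 on day 0, 35.5 in BM, 53.03 in B, 27.8 in C and 40.0 in BC.

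Tfrc, the receptor that takes up iron bound to transferrin, had an FPKM of 86.8 on day 0, 27.2 in BM, 31.6 in B, 24.1 in C and 33.9 in BC. Its count ratio in BM was 0.312 (0.298 to 0.326). The ferritin gene Fth1 (1557 on day 0, 1677 to 1970 on day 1) and Ireb2 (14.4 and 16.8 to 18.8) were near day 0, and Tfrc was the only member of 7 analysed iron genes. Dhx9, an RNA helicase gene, had 86.6 on day 0 and 31.0 to 37.0 on day 1.

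Some lower members encode secreted proteins or regulators of their signals, chosen here after their values were seen and not as a list. Fst, which encodes the activin-binding protein follistatin, had an FPKM of 109 on day 0, 9.69 in BM, 51.3 in B, 7.32 in C and 35.2 in BC, so its values with bFGF were nearer to day 0. Hbegf, an epidermal growth factor receptor ligand, had 67.7 on day 0, 17.4 in BM, 33.4 in B, 13.2 in C and 21.9 in BC. Fgfbp1, a carrier of fibroblast growth factors, was low, with 2.59 on day 0 and 0.22 to 0.59 on day 1. Pmepa1, an inhibitor of transforming growth factor beta signalling, had 22.3 and 5.22 to 9.78.

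In the list of Myc family and ribosome biogenesis genes 2 of 23 were lower in all 4 media, against 0.25% of all genes, and the other 21 did not pass. The median difference was -1.17 in BM, -0.74 in B, -1.18 in C and -0.56 in BC. Of the 23, 21 were below day 0 in each medium, the 2 members included. Of 88 genes with the wider annotation rRNA processing 0 were members, with medians between -0.36 and -0.18, and 66 were below and 6 above day 0 in each medium. Nop58, a core protein of the particles that methylate ribosomal RNA, had an FPKM of 162 on day 0, 52.7 in BM, 68.4 in B, 52.2 in C and 77.3 in BC. Dkc1, the pseudouridine synthase of ribosomal RNA, had 84.9 on day 0, 28.9 in BM, 41.4 in B, 26.7 in C and 41.0 in BC.

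In both genes the day 1 values with bFGF lay nearer to day 0 than those without. Ncl, nucleolin, which did not pass, had 348 on day 0 and 154 to 238 on day 1, and Myc itself had 78.7 on day 0, 48.5 in BM, 87.5 in B, 22.6 in C and 52.9 in BC. Cd3eap, a subunit of RNA polymerase I, was a member, with 37.0 on day 0 and 10.3 to 15.4 on day 1, and so was Grwd1, a ribosome assembly factor (106 and 30.9 to 49.6). The transfer RNA methyltransferase gene Trmt61a had 15.3 and 3.65 to 6.03. Of 80 analysed ribosomal protein genes 0 were members, with medians between -0.29 and -0.05, and quantile normalization left 0 members in the Myc and ribosome biogenesis list.

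The S-phase and G2/M lists held 0 members with the FPKM as deposited, and of 232 genes with the annotation cell cycle 1 was lower. The 43 S-phase genes had medians of -0.61 in BM, -0.54 in B, -0.46 in C and -0.46 in BC, and 38 of them were below day 0 in each medium. The 54 G2/M genes had medians between -0.34 and -0.21, with 40 below day 0 in each. Under TMM or size factors 1 G2/M gene was lower in all 4 media, and under quantile normalization 1 S-phase gene was. The single histone member, Hist1h2ao (31.3 on day 0, 9.84 to 14.1 on day 1), belongs to a family of near-identical genes whose transcripts mostly lack a poly-A tail, so its value after poly-A selection is uncertain. Of the 42 first lists with an analysed gene, 24 held 0 members.

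**Figure D4:**
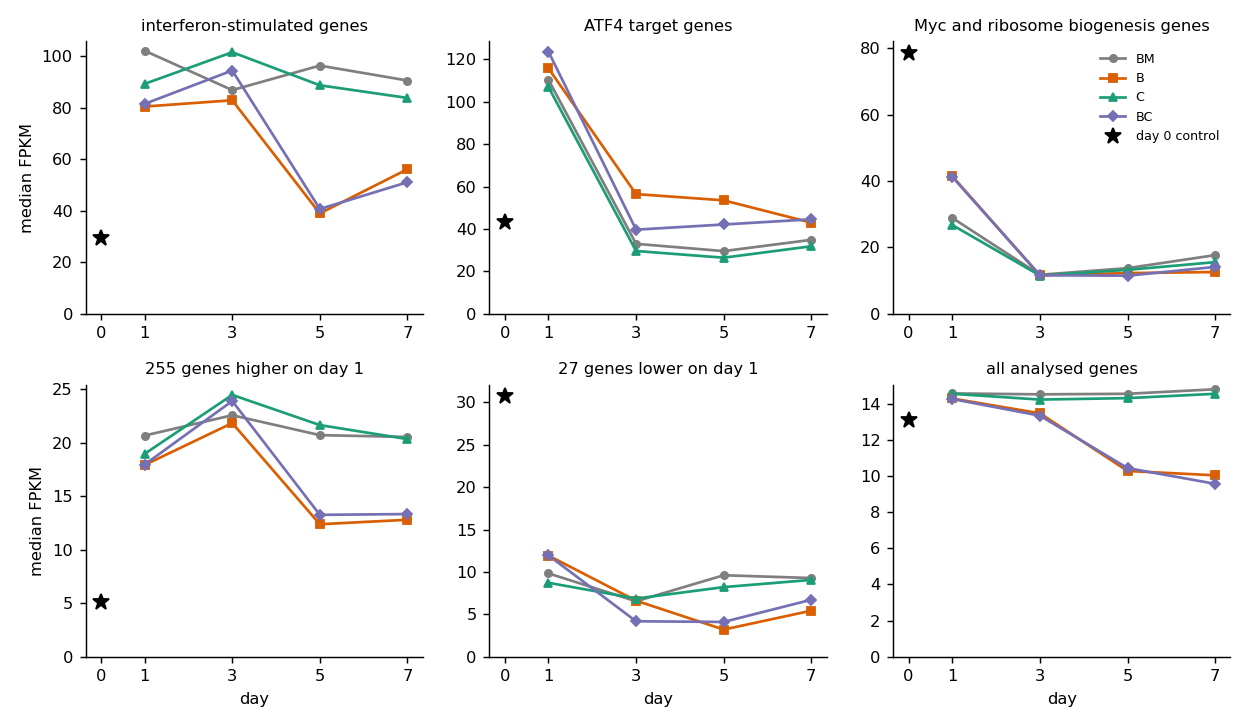
Median FPKM of 6 gene sets against the day of culture, with a star for the day 0 control and a line for each medium, 1 library per point. The star is below all other points for the interferon-stimulated genes and for the 255 higher genes, and above all other points for the Myc and ribosome biogenesis genes and for the 27 lower genes. The day 0 value helped to choose the 255 and the 27 genes.

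The libraries of days 3, 5 and 7 did not choose the members and are given as levels. The day 0 library did choose them, so their distance from day 0 on later days is partly set by the rule. The median FPKM of the 21 interferon-stimulated genes was 29.4 on day 0, 80.5 to 102 on day 1, and 82.9 to 102 on day 3. In BM and C it was 83.8 to 96.4 on days 5 and 7, while in B and BC it was 38.9 to 40.7 on day 5 and 51.1 to 56.1 on day 7. The median of all genes analysed was itself lower in B and BC on those days, at 9.57 to 10.4 beside 13.1 on day 0. The median of the 16 guanylate-binding and immunity-related GTPase genes was 6.96 on day 0 and 32.7 to 52.4 on day 1, and the day 5 medians were 5.35 in B, 9.80 in BC, 61.6 in BM and 64.8 in C.

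The ATF4 target genes as a set had their highest median on day 1. Their median FPKM was 43.2 on day 0 and 107 to 124 on day 1, and on days 3 to 7 it lay between 26.4 and 56.4 in all media. Individual members differed in this respect. Ddit3 had 253 to 713 in the later libraries with bFGF, above its day 1 values of 155 to 191, and 54.8 to 77.4 in those without. Trib3 had 5.38 to 41.6 in the 12 later libraries and Acot2 3.35 to 7.84, both with day 1 values above that range, while Ddit4 had 45.3 to 103 and Dbp 45.4 to 115. Cxcl10 had 46.5 to 106 in the later libraries, at or below its day 0 level of 106.

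The genes on the Myc and ribosome biogenesis list had a median of 78.7 on day 0, 26.7 to 41.4 on day 1 and 11.5 to 11.7 on day 3. On day 7 the median was 17.6 in BM, 12.5 in B, 15.5 in C and 14.1 in BC, above day 3 in each medium. Tfrc had 5.30 to 11.4 in the later libraries. Angptl4 had the widest later range of the 14 lower genes in the plot of single genes, from 0.71 to 175. The median of the 27 lower genes was 30.7 on day 0 and no more than 9.62 in any later library, and that of the 255 higher genes was 5.1 on day 0 and at least 12.4 in each.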

How the data were processed

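Poly-A RNA of 17 libraries was sequenced on the BGISEQ-500 platform. The paper names Bowtie 2 and eXpress, while the labels name Bowtie2, RSEM and mm10. Which program made the values, and its version, are not given in the sources used here. The authors deposited, per gene and library, an expected count, which can be fractional where reads are shared among genes, and an FPKM, and a gene that was not listed was read as 0.

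Differences were taken between log2(FPKM + 1) of each of the 4 day 1 libraries and the day 0 library, with a pseudocount of 1, for genes with an average of at least 1 FPKM over the day 0 value and the mean day 1 value. With 1 library per condition, no p-value was computed. Count ratios were scaled by library totals, which were 19428744 on day 0 and 18796690 to 18980140 on day 1, and have exact 95% Clopper-Pearson intervals. The text names the 15 higher and 15 lower genes with the largest smallest difference, up to 4 members per list, marker genes, and the 3 genes on either side of each threshold. Genes of the interferon, stress kinase, synthetase and iron lists, other values within lists, and the lower genes Fst, Grwd1 and Hbegf were named after their values were seen. Some genes that these rules select are not reported here. The members and the 45 lists were chosen with earlier results of these data known, and 10 further lists, 9 Gene Ontology terms and both motifs were added after the values were seen. Alternatives used TMM factors (edgeR 4.0.16), size factors (DESeq2 1.42.0) in R 4.3.3, other filters and pseudocounts, and leaving out each day 1 library. Python 3.11.15 with pandas 2.3.3 and scipy 1.17.1 was used, and the counting was tested on simulated data.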

Additional observations from a re-analysis of the deposited data

Results flagged for a closer look

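Gene lists in which both media with bFGF moved one way from day 0 and both media without it the opposite way were singled out where the list had at least 5 analysed genes. ERK feedback genes, over 14 analysed genes, had a median log2(FPKM + 1) difference of 0.26 in B and 0.18 in BC, and of -0.29 in BM and -0.82 in C. Notch pathway genes, over 6 analysed genes, had -0.20 in B and -0.17 in BC, and 0.14 in BM and 0.02 in C. The difference between the media was not tested, as each had 1 library. None of the genes of these lists was a member. Among shorter lists, the 3 analysed fibroblast and pericyte genes had medians of -0.16 in B and -0.34 in BC beside 1.09 in BM and 0.67 in C, and the 1 analysed photoreceptor gene had -0.01, -0.09, 0.32 and 0.10 in the same order.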

How the results depend on the processing

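The difference of the median gene changed sign, from 0.09 to -0.05 with TMM factors, -0.06 with size factors and -0.02 with quantile normalization. No named gene or list median past a difference of 1 reversed. With a pseudocount of 0.1 the shared counts were 465 higher and 45 lower, and single media had 702 (B), 1140 (C) and 645 (BC) higher and 126 (B) and 147 (BC) lower genes. TMM factors gave 62 shared lower genes and 387, 152, 495 and 158 lower in BM, B, C and BC, and size factors gave 65 and 409, 155, 511 and 161. The interferon median over the 4 media was then 1.59 and 1.58 in place of 1.75, and the ATF4 median 0.77 and 0.76 in place of 0.92. Without a filter the ATF4 median was 0.78. Higher genes in BM and C numbered 479 and 482 with a minimum of 5 FPKM, and 470 and 462 after quantile normalization. When 1 day 1 library was left out, the shared lower genes numbered 28 to 45, with 45 without B and 42 without BC, and the shared higher genes 271 to 291. The added alternative of counts scaled by library totals alone, chosen after seeing the data, gave 372 and 33. In each setting that kept all 4 day 1 libraries, 16 or 17 interferon-stimulated genes were higher in every medium. For ATF4 targets the count was 8 to 10. Of the 282 members, 205 higher and 27 lower genes remained with TMM factors, and 173 and 22 with quantile normalization. No paired analysis was possible because each group has 1 library.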
